A study of Mus musculus with 12 samples.

Results

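Positive acute phase genes, 10 of them, were read out in mouse liver: the serum amyloid A genes Saa1 and Saa2, the orosomucoid genes Orm1 and Orm2, haptoglobin (Hp), hemopexin (Hpx), lipocalin 2 (Lcn2), the lipopolysaccharide binding protein gene (Lbp), and the inter-alpha-trypsin inhibitor heavy chain genes Itih3 and Itih4. They were picked by symbol, with earlier results of these data known, and the rule itself used no measured value. All 10 of the 10 symbols were found among the 28036 genes of the count matrix, 1 row each, and all 10 passed the filter on low counts.

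The acute phase response is a change in the output of plasma proteins by the liver during inflammation, infection or tissue injury. Hepatocytes raise the positive acute phase genes when interleukin 6 acts through its receptor and STAT3, and when interleukin 1 and tumour necrosis factor act through NF-kB and C/EBP factors, and they lower negative ones such as albumin and transthyretin. Serum amyloid A is carried on high-density lipoprotein, and orosomucoid binds small lipophilic molecules. Haptoglobin and hemopexin bind free haemoglobin and haem, and lipocalin 2 withholds iron-loaded siderophores from bacteria. The inter-alpha-trypsin inhibitor heavy chain that Itih3 encodes attaches to hyaluronan in the matrix.

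The study set 3 livers in each of 4 groups of C57BL/6J mice side by side, 12 libraries in all, at 12 weeks. Control mice ate normal chow. MASH mice carried the high-fat diet model of metabolic dysfunction-associated steatohepatitis, a fatty liver with inflammation. Both of these groups received 0.5% CMC-Na, the vehicle, by mouth for 4 weeks. EE mice carried the same model, and after its first 8 weeks they were dosed orally for 4 weeks with 100 mg/kg of Eleutheroside E, a lignan glycoside of plant origin, while resmetirom mice carried the model and were dosed orally for 4 weeks with 3 mg/kg of resmetirom, which activates the beta form of the thyroid hormone receptor. The sex and age of the animals, and whether each liver is 1 animal, are not stated in the labels, so the p-values measure the spread between these samples.

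Library totals ran from 17297865 to 21793326 counts. Control 1 (replicate 1 of the control group) stood apart, with 34.9% of its counts on the 13 mitochondrially encoded protein genes against 2.35% to 4.32% in the other livers, and resmetirom 2 had 35.7% of its counts on major urinary protein genes against 3.33% to 15.99% elsewhere. All 8 hepatocyte markers were present in every group, with summed levels of 9515 to 14635 CPM (a gene's count relative to its library's total, adjusted by trimmed-mean factors so that livers can be compared). The summed level of 9 Kupffer cell and macrophage markers was 74.3 CPM in control 1, 856 CPM in resmetirom 1 and 292 to 478 CPM in the other livers. For the members that these 2 livers, control 1 and resmetirom 2, moved most, the value without them stands beside the value with them. In whole liver, fewer cells of a type and less RNA per cell cannot be told apart.

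Start-site windows are printed here for the 5 members whose MASH livers lay above all control livers (Saa1, Saa2 and Lcn2) or whose EE livers lay above all other livers (Itih3 and Itih4). Saa1 and Saa2 lie side by side, as do Itih3 and Itih4, and Lcn2 lies next to no other member. In the RefSeq table of GRCm38.p6 a window of 300 bases, 250 before and 50 after the start, was found for 7 of the 10 genes, and Orm1, Hp and Lbp had no entry. Capitals mark matches, on either strand, to TTCNNNGAA (a STAT motif), GGG and CC with 5 bases of any kind between them (an NF-kB motif) and TTNNGNAA (a C/EBP motif). The Saa1 window (chr7:46742931-46743230, minus strand) and the Saa2 window (chr7:46751583-46751882, plus strand) point away from each other on chromosome 7.
Saa1: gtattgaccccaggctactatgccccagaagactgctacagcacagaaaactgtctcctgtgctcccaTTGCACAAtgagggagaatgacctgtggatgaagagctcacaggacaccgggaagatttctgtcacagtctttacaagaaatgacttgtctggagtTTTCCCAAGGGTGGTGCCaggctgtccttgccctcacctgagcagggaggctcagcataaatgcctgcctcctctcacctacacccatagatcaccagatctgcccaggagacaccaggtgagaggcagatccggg
Saa2: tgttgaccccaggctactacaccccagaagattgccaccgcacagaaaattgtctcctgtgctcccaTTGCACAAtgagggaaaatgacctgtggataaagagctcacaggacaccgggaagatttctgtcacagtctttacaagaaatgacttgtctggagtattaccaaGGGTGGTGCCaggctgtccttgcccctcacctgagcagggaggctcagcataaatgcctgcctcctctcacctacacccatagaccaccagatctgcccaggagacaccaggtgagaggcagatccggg
The windows of Lcn2 (chr2:32387690-32387989, minus strand), Itih4 (chr14:30886226-30886525, plus strand) and Itih3 (chr14:30923538-30923837, minus strand) follow.
Lcn2: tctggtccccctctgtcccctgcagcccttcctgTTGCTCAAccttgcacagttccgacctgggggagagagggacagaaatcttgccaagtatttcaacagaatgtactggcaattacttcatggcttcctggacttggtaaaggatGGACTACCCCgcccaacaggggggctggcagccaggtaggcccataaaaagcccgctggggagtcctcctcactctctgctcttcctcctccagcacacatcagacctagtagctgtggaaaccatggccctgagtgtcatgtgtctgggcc
Itih4: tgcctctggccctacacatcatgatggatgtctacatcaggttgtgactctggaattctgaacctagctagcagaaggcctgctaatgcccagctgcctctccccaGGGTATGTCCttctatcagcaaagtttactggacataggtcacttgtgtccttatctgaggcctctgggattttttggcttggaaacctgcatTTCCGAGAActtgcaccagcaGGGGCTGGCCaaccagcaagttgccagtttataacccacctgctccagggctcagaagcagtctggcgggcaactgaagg
Itih3: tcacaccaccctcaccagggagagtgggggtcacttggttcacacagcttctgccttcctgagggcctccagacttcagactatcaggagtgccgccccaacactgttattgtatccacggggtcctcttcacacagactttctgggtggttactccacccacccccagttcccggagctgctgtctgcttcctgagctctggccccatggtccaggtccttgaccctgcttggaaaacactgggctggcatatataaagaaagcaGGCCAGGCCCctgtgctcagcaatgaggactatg

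Saa1 and Saa2 windows were identical at 287 of 299 aligned bases (96.0%), and both held the same NF-kB match, GGGTGGTGCC, first base 78 and 79 bases before the start. Saa1 held C/EBP matches 182 and 86 bases before its start, the second one directly adjoining the NF-kB match, and Saa2 held only the first of them, at 183. Lcn2 had an NF-kB match 102 bases and a C/EBP match 216 bases before its start. The only STAT match among the 7 windows was in Itih4, 51 bases before the start, and its NF-kB matches lay at 144 and 30, while the only match of Itih3, an NF-kB one, began 16 bases after the start. Orm2 and Hpx, not printed, each had 2 C/EBP matches (120 and 108, and 200 and 73 bases before the start). Of 32851 windows of the same length in the table, 8.298% held a STAT match, 50.79% an NF-kB match and 40.68% a C/EBP match, so a match describes letters and not a bound site. In the order of that assembly Saa3, Saa4, Saa1 and Saa2 are neighbours, as are Orm1, Orm3 and Orm2 on chromosome 4, and Itih4, Itih3 and Itih1 on chromosome 14.

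Per kilobase of transcript, the members spanned about 2 orders of magnitude in level. In MASH livers the mean level was 2169 CPM per kb for Hp and 1917 for Hpx, then 425 for Orm1, 376 for Itih4, 175 for Saa1, 159 for Itih3 and 109 for Saa2, and lastly 28.6 for Lcn2, 28.3 for Lbp and 24.4 for Orm2. In control livers Lcn2 was lowest at 3.2 and Hpx highest at 2096, and in resmetirom livers Hpx stood at 4026. The range over livers did not follow the level: the highest over the lowest liver was 72.2-fold for Saa2, 31.3-fold for Saa1, 23.1-fold for Lcn2, 12.0-fold for Orm1 and 10.95-fold for Orm2, against 3.33-fold for Itih3 and 2.35-fold for Lbp, which is among the lowest genes. For Saa1 and Saa2 the lowest liver was control 1 (5.72 and 1.81 CPM), and the next lowest livers stood at 18.0 and 8.11 CPM, so their widest ranges rest on that library. Together the members took 0.522% (control 1) to 1.59% (resmetirom 1) of a library's counts.

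**Figure D1:**
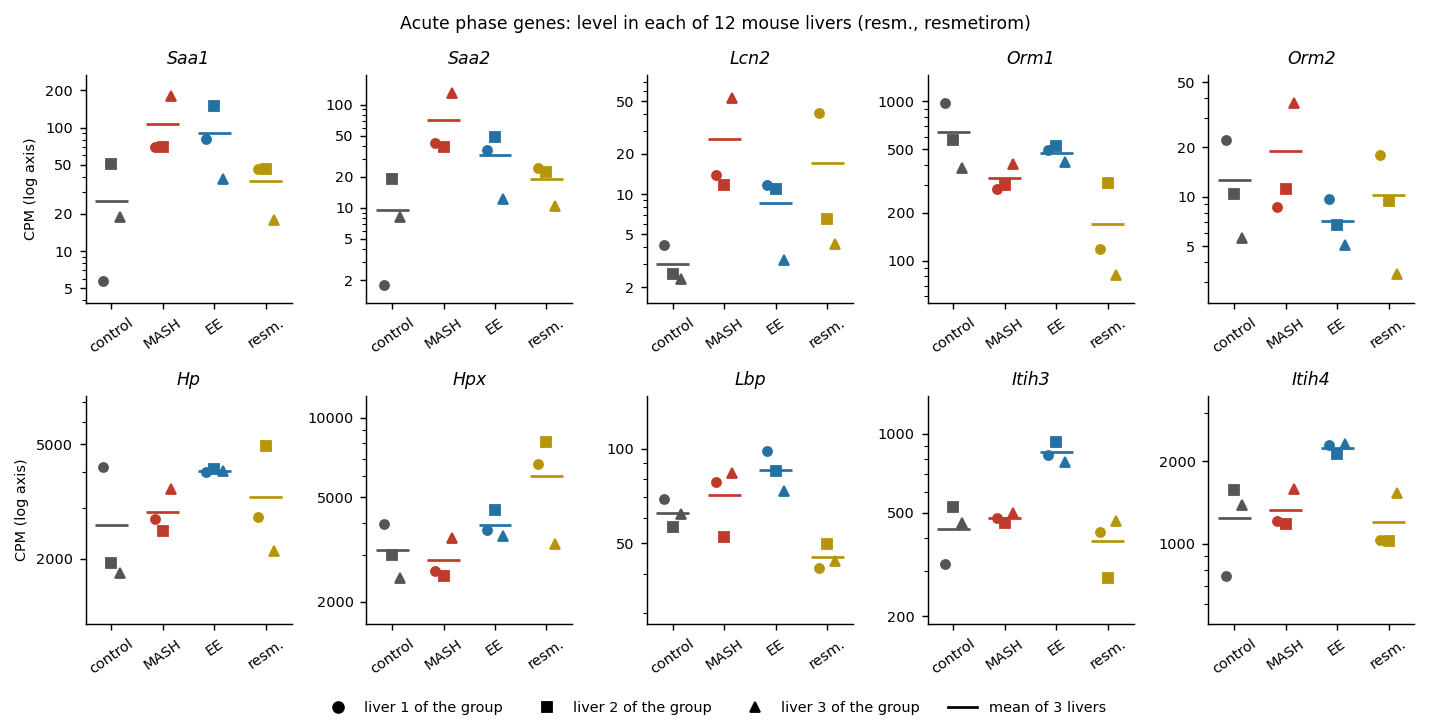
Level of each of the 10 acute phase genes in CPM (log axis, 1 panel a gene) in the 12 livers; points are livers, shaped by replicate number, and bars are means of 3 livers. Saa1, Saa2 and Lcn2 have all MASH livers above all control livers, and Itih3 and Itih4 have all EE livers above all other livers. The share of all genes with this EE pattern was not counted.

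No member passed the threshold (adjusted p below 0.05, edgeR over 13988 genes) in any of the 4 comparisons when all 12 livers shared 1 fit. The share of all tested genes that passed was 0.0143% for MASH against control, 0.00715% for EE against MASH, 0.665% for resmetirom against MASH and 0.307% for EE against resmetirom, so few genes of any kind were called in the comparisons with control or between EE and MASH. At an unadjusted p below 0.05 from the same edgeR model, the members numbered 3, 2, 3 and 4 of 10 in the same order, beside 9.23%, 7.49%, 15% and 11.8% of all genes. The median log2 fold change of the members was 0.17 for MASH against control (all genes -0.02), 0.35 for EE against MASH (all genes -0.02), -0.64 for resmetirom against MASH (all genes 0.06) and 0.84 for EE against resmetirom (all genes -0.08). Of the members 8, 6, 2 and 7 had a positive value, where 48.4%, 47.6%, 54.2% and 42.4% of all genes did, and without scaling factors 9, 5, 1 and 7 did. EE and resmetirom were both set against the same 3 MASH livers, and EE and resmetirom doses differed. Other fits called some members: DESeq2, which called 0.626%, 0.21%, 4.73% and 2.95% of genes in the 4 comparisons, called 2, 0, 1 and 3 members, and a fit of the EE and MASH livers alone called 2 of 10, beside 5.63% of its 13248 genes.

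**Figure D2:**
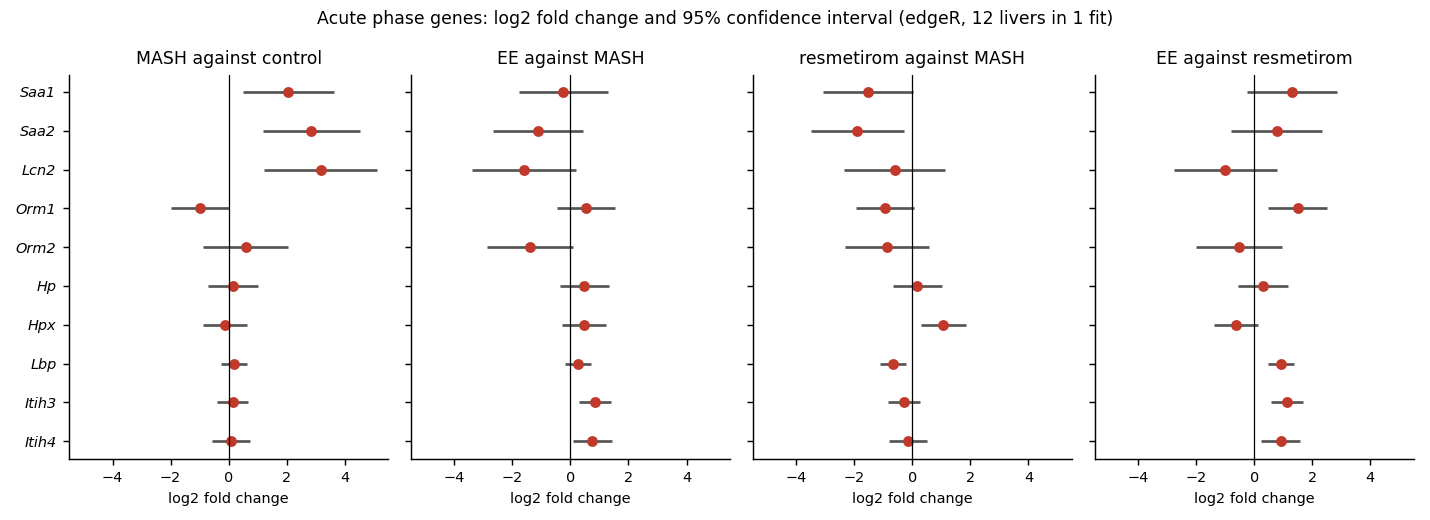
Log2 fold change (points) and 95% confidence interval (lines) of each of the 10 genes in 4 comparisons, from 1 edgeR fit of 12 livers; the vertical line is no difference. In MASH against control the intervals of Saa1, Saa2 and Lcn2 lie above 0, and in EE against MASH those of Itih3 and Itih4 do.

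Groups that did not overlap gave another count. In MASH against control 3 members (Saa1, Saa2 and Lcn2) had every MASH liver above every control liver, where 10.2% of all genes did, and none had the opposite, where 9.41% did. In EE against MASH 5 members (Orm1, Hp, Hpx, Itih3 and Itih4) were higher without overlap, where 16.7% of all genes were, and Lcn2 was lower, where 15.5% were. These levels are scaled, with factors of 1.15 to 1.22 in MASH and 0.960 to 0.993 in EE livers. Relative to library totals alone, Orm1, Hp and Hpx overlapped through MASH 3, and Itih3, Itih4 and Lcn2 stayed apart. Hp had 89370 of 21033080 counts in MASH 3 and 78054 of 19630583 in EE 1. In resmetirom against MASH 3 members (Saa1, Saa2 and Lbp) were lower without overlap, beside 12.3% of all genes, and none was higher, beside 11.6%. In EE against resmetirom 4 members (Orm1, Lbp, Itih3 and Itih4) were higher without overlap, beside 8.7% of all genes, and none was lower, beside 9.09%.

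Serum amyloid A had the widest range over the 12 livers, with its lowest values in control 1 (57 counts of Saa1 and 18 of Saa2). In resmetirom livers the SD as a share of the mean was larger for Orm1 and Orm2 (71.6% and 71.4%) than for Saa1 and Saa2 (44.3% and 39.6%). The reverse held in control and EE livers. Saa1 stood at 5.72, 50.9 and 19.1 CPM in control livers 1, 2 and 3, at 70.1, 69.8 and 179 in MASH, at 80.5, 151 and 38.6 in EE, and at 46.5, 46.1 and 18.0 in resmetirom livers. All MASH livers were above all control livers and all resmetirom livers below all MASH livers, and EE livers overlapped every group. The mean was 25.2 ± 23.2 CPM (SD, n = 3) in control, 106 ± 63.1 in MASH, 90.0 ± 56.8 in EE and 36.9 ± 16.3 in resmetirom. The log2 fold change was 2.06 ± 0.73 (SE) for MASH against control (adjusted p = 0.512) and -1.53 ± 0.71 for resmetirom against MASH (adjusted p = 0.341). Single livers moved the first value to 1.46 without MASH 3, 1.61 without control 1 and 3.09 without control 2, and the second to -0.93 without MASH 3. For EE against MASH it was -0.24 ± 0.70 (adjusted p = 0.955), with an interval from -1.76 to 1.28, and it turned to 0.36 without MASH 3 and to 0.12 without EE 3.

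Saa2, whose product circulates with that of Saa1, put the livers of each of the 4 groups in the same order as Saa1 did. It stood at 1.81, 18.9 and 8.11 CPM in control, at 42.9, 39.0 and 131 in MASH, at 36.5, 49.0 and 12.3 in EE and at 24.5, 22.3 and 10.4 in resmetirom livers. MASH livers were again all above control and resmetirom livers. The log2 fold change was 2.85 ± 0.77 for MASH against control (adjusted p = 0.470, and 0.0143 in DESeq2), -1.12 ± 0.72 for EE against MASH (adjusted p = 0.785) and -1.89 ± 0.74 for resmetirom against MASH (adjusted p = 0.259). The value for MASH against control was 2.07 without MASH 3, 2.39 without control 1 and 3.79 without control 2. Without MASH 3 that for EE against MASH was -0.33 and that for resmetirom against MASH -1.11. Over the 12 livers the log2 levels of Saa1 and Saa2 had a Pearson r of 0.97, given as a description of libraries that share depth and scaling.

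The balance between these near copies differed between livers. Saa2 had 0.316 to 0.426 counts per Saa1 count in control livers, 0.559 to 0.728 in MASH livers, 0.318 to 0.454 in EE livers and 0.484 to 0.580 in resmetirom livers. The MASH range lay above those of control and EE livers. The transcripts were identical at 572 of 606 aligned bases (94.4%), and none of the 460 stretches of 150 bases of Saa1 occurred whole in Saa2, but shorter reads or mismatches could be assigned to either copy, so the split is uncertain. The sum of both genes was 109 to 310 CPM in MASH, 7.53 to 69.9 in control, 50.9 to 200 in EE and 28.5 to 71.0 in resmetirom livers, and it kept MASH livers apart from control and resmetirom livers.

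Lcn2 is made by stressed hepatocytes and is also stored in neutrophil granules. It stood at 4.12, 2.49 and 2.28 CPM in control livers, at 13.9, 11.7 and 52.7 in MASH, at 11.6, 10.8 and 3.17 in EE, and at 40.3, 6.44 and 4.199 in resmetirom livers. Every MASH liver was above every control liver and above every EE liver, whereas resmetirom 1 lay inside the MASH range and resmetirom 2 and 3 below it. The log2 fold change was 3.17 ± 0.90 for MASH against control (adjusted p = 0.486, and 0.0171 in DESeq2), with an interval from 1.21 to 5.13, and 2.14 without MASH 3. It was -1.61 ± 0.83 for EE against MASH (adjusted p = 0.701), and -0.58 without MASH 3. For resmetirom against MASH it was -0.61 ± 0.80 (adjusted p = 0.748), and 1 liver set it on each side: -2.31 without resmetirom 1 and 0.41 without MASH 3. EE against resmetirom was -0.9996 ± 0.82 (adjusted p = 0.708) and 0.70 without resmetirom 1.

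Neutrophil markers summed to less than Lcn2 in every liver except control 1 (22.6 against 4.12 CPM). Of 12 listed markers 11 were in the matrix, and their summed level was 1.61 to 5.15 CPM in 10 livers, 9.54 in resmetirom 1 and 22.6 in control 1. The control 1 sum lay mostly in S100a9 (11.6 CPM), S100a8 (5.32) and Csf3r (2.91). The 2 livers with the highest Lcn2, MASH 3 (5.15) and resmetirom 1 (9.54), also had the highest neutrophil sums of their groups. On scaled levels only, control 1 had the highest neutrophil sum of all and the highest Lcn2 of the controls. Its scaling factor was 0.508, against 1.41 in resmetirom 1. Before scaling, Lcn2 had 41 of 19600122 counts in control 1, 59 of 21793326 in control 2 and 45 of 17302703 in control 3. Of the 11, Camp, Ltf and Ngp were at 0 in all control livers and Camp and Ltf in all MASH livers, while the granule genes Elane (0.14, 0.21 and 0.16 CPM in the MASH livers), Mpo (0.078 in MASH 3) and Ngp (0.042 in MASH 2) were detected at low levels. Their part in the Lcn2 values was not tested.

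The near copies of orosomucoid ordered the livers differently. Orm1, the abundant gene, stood at 984, 575 and 383 CPM in control, at 283, 298 and 406 in MASH, at 495, 525 and 415 in EE, and at 119, 309 and 81.8 in resmetirom livers. On these scaled levels EE livers were all above MASH and resmetirom livers, and resmetirom overlapped MASH only through resmetirom 2. The log2 fold change was -0.98 ± 0.46 for MASH against control (adjusted p = 0.550), 0.54 ± 0.45 for EE against MASH (0.828), -0.96 ± 0.46 for resmetirom against MASH (0.351) and 1.495 ± 0.46 for EE against resmetirom (0.214). The value for MASH against control was -0.53 without control 1 and -0.40 without scaling factors. Resmetirom against MASH ran from -0.63 without resmetirom 3 to -1.72 without resmetirom 2, and EE against resmetirom from 1.17 to 2.27 without the same livers. Without control 1 and resmetirom 2 together, resmetirom against MASH was called lower (-1.71, adjusted p = 0.0128) and EE against resmetirom higher (2.24, adjusted p = 0.00910), and without any filter on low counts EE against resmetirom was called higher (adjusted p = 0.0472).

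Orm2, the minor gene, stood at 22.2, 10.4 and 5.58 CPM in control, at 8.60, 11.1 and 37.0 in MASH, at 9.69, 6.69 and 5.07 in EE, and at 18.0, 9.43 and 3.38 in resmetirom livers. All groups overlapped. Its log2 fold change was 0.59 ± 0.67 for MASH against control, -0.35 without MASH 3 and 1.25 without control 1, and -1.40 ± 0.68 for EE against MASH (adjusted p = 0.691), -0.46 without MASH 3. For resmetirom against MASH it was -0.88 ± 0.67, 0.06 without MASH 3 and -1.58 without resmetirom 1. Orm2 made up 1.21% to 3.95% of the counts of Orm1, Orm2 and Orm3 in 10 livers, 8.30% in MASH 3 and 13.1% in resmetirom 1, the same livers in which Lcn2 was highest. The Orm1 and Orm2 transcripts were identical at 705 of 775 bases (91.0%), so this split is uncertain too.

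**Figure D3:**
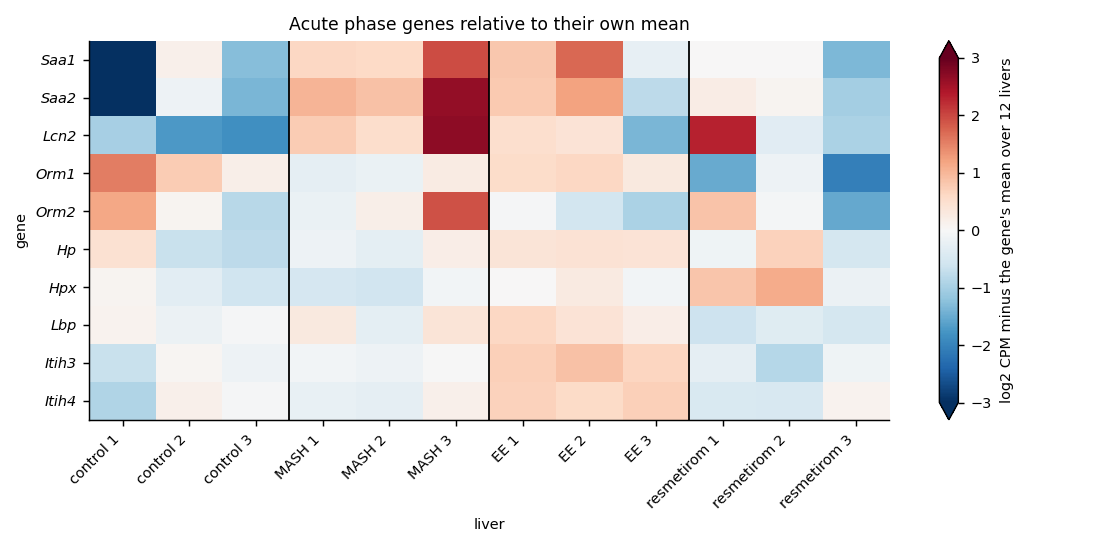
Log2 CPM of each acute phase gene in each of 12 livers minus the gene's mean over the 12 livers (colour, limited to 3 either way), with lines between groups. MASH 3 is dark for Saa1, Saa2, Lcn2 and Orm2, resmetirom 1 for Lcn2, and the 3 EE columns are evenly above 0 for Itih3 and Itih4.

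Within the MASH group, 1 liver led every member. MASH 3 was the highest MASH liver for 10 of 10 genes, and MASH 2 the lowest for 8. It was also the highest of all 12 livers for Saa1, Saa2, Lcn2 and Orm2. In the EE group EE 3 was lowest for 8 genes and EE 2 highest for 6, and resmetirom 3 was the lowest of its group for 7. Control 1 was the lowest of 12 for Saa1, Saa2 and Itih4 and, on scaled levels only, the highest for Orm1. Before scaling, Orm1 had 9799 of 19600122 counts in control 1 and 13618 of 21793326 in control 2.

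The haemoglobin and haem scavengers were the most abundant members. Hp stood at 4169, 1935 and 1782 CPM in control, at 2761, 2506 and 3487 in MASH, at 4003, 4120 and 4035 in EE, and at 2799, 4922 and 2127 in resmetirom livers. The EE livers lay within 1.03-fold of each other, where the other groups spread 1.39-fold to 2.34-fold. They lay above all MASH livers on scaled levels only. The log2 fold change was 0.47 ± 0.39 for EE against MASH (adjusted p = 0.825), 0.15 ± 0.39 for MASH against control and 0.17 ± 0.39 for resmetirom against MASH. The value for MASH against control was 0.66 without control 1, -0.02 without control 2 and -0.05 without control 3, and that for resmetirom against MASH was -0.25 without resmetirom 2 and -0.15 without scaling factors. The livers with the highest scaled Hp, control 1 and resmetirom 2, also had the highest scaled sum of 7 erythroid markers, 3743 and 1679 CPM against 482 to 926 elsewhere. They also had the smallest scaling factors (0.508 and 0.663, against 0.960 to 1.41), which raise all their levels, so both rankings depend on the scaling. Before scaling, Hp had 41522 of 19600122 counts in control 1, 65754 of 20141207 in resmetirom 2 and 89370 of 21033080 in MASH 3. The part of the erythroid markers in the Hp values was not tested.

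Hpx stood at 3946, 3009 and 2469 CPM in control, at 2617, 2507 and 3496 in MASH, at 3759, 4484 and 3543 in EE, and at 6687, 8109 and 3310 in resmetirom livers. Resmetirom 1 and 2 were above every other liver and resmetirom 3 lay inside the MASH range. Resmetirom against MASH had a log2 fold change of 1.07 ± 0.35 (adjusted p = 0.190, and 0.0289 in DESeq2), with an interval from 0.31 to 1.84, and 0.79 without resmetirom 2. EE against MASH had 0.45 ± 0.35 (adjusted p = 0.815), with EE livers all above MASH livers on scaled levels only. MASH against control had -0.13 ± 0.35, and 0.08 without control 1.

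Of the receptors that clear these complexes, Cd163, the macrophage haptoglobin receptor, stood at 14.5 CPM on average in MASH and 16.5 in EE livers, and Hmox1, the enzyme that degrades haem, at 23.6 in MASH, 26.9 in EE and 38.9 in resmetirom livers, the last led by 77.7 in resmetirom 1. Of the 10 listed receptors and binding partners, none was called in any comparison, and their median log2 fold change was 0.06, -0.01, 0.52 and -0.55 in the order MASH against control, EE against MASH, resmetirom against MASH and EE against resmetirom. Scarb1, the lipoprotein receptor that also binds serum amyloid A, stood at 120 CPM in control, 161 in MASH, 198 in EE and 236 in resmetirom livers. On these scaled levels MASH did not overlap control, EE or resmetirom (resmetirom against MASH 0.55 ± 0.21, edgeR adjusted p = 0.243).

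Lbp, which hands bacterial lipopolysaccharide to CD14, had the narrowest range of the members over the 12 livers. It stood at 69.1, 56.6 and 62.2 CPM in control, at 78.3, 52.4 and 83.8 in MASH, at 98.1, 84.7 and 73.5 in EE, and at 41.7, 49.9 and 44.0 in resmetirom livers. On scaled levels all resmetirom livers were below all livers of the other groups. Relative to library totals alone they stayed below all MASH and EE livers but overlapped the control group through control 1. Lbp had 688 of 19600122 counts in control 1 and 1083 of 18409204 in resmetirom 1. The log2 fold change was -0.66 ± 0.21 for resmetirom against MASH (adjusted p = 0.176), with an interval from -1.12 to -0.20, and 0.92 ± 0.21 for EE against resmetirom (adjusted p = 0.102), with an interval from 0.46 to 1.38. Without control 1, a library that enters neither group, EE against resmetirom was called (adjusted p = 0.0493). EE against MASH was 0.26 ± 0.21 (adjusted p = 0.824) and -0.05 without scaling factors, and MASH against control 0.19 ± 0.21. Cd14 itself stood at 3.20 CPM in MASH, 3.42 in EE and 6.26 in resmetirom livers, with 11.2 in resmetirom 1.

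Itih3 and Itih4 were higher in EE livers than in any other liver. Itih3 stood at 319, 526 and 457 CPM in control, at 475, 457 and 499 in MASH, at 833, 935 and 784 in EE, and at 420, 281 and 465 in resmetirom livers. Itih4 stood at 762, 1577 and 1387 CPM in control, at 1213, 1183 and 1587 in MASH, at 2289, 2121 and 2323 in EE, and at 1035, 1021 and 1534 in resmetirom livers. For both genes all 3 EE livers were above all 9 others, and the MASH, control and resmetirom groups overlapped. Of all tested genes, 16.7% had all EE livers above all MASH livers and 8.7% had them above all resmetirom livers. The share with EE livers above all 9 others was not counted, so how unusual this pattern is was not shown. The mean of Itih3 was 850 ± 76.7 CPM (SD, n = 3) in EE against 477 ± 20.9 in MASH, 1.78-fold, and that of Itih4 was 2244 ± 108 against 1327 ± 225, 1.69-fold.

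In the fit of all 12 livers, EE against MASH had a log2 fold change of 0.83 ± 0.25 for Itih3 (adjusted p = 0.595) and 0.76 ± 0.30 for Itih4 (adjusted p = 0.627). EE against resmetirom had 1.13 ± 0.25 for Itih3 (adjusted p = 0.0985, and 0.0351 without control 1) and 0.91 ± 0.30 for Itih4 (adjusted p = 0.263). In the fit of the EE and MASH livers alone, both rose in EE (Itih3 adjusted p = 0.0181, Itih4 adjusted p = 0.0291), where 2.95% of genes were called higher. With the replicate number as a block in that fit, Itih3 (adjusted p = 0.00271), Itih4 (0.00386) and Hp (0.0236) were called higher, beside 10.6% of genes (20.7% in either direction). That block assumes a pairing of livers that the labels do not state and the data do not establish, which holds for every call with the block below. The calls without the block depended on single livers: both genes kept theirs without EE 1 and without MASH 3 (0.0313 each), Itih3 alone kept it without EE 3 (0.0388) or MASH 2 (0.0372), and neither kept it without EE 2 (0.0597 and 0.0790) or MASH 1 (0.0546 and 0.0929). The log2 fold changes without those 2 livers were 0.76 and 0.83 for Itih3 and 0.79 and 0.69 for Itih4, against 0.83 and 0.75 with all 6, and the calls over all genes went from 746 to 11 and 33. In the fit without control 1 and resmetirom 2, Itih3 was called higher in EE than in MASH (0.82, adjusted p = 0.0433). In the edgeR fit of the EE and MASH livers alone without MASH 3, Orm1, Hp and Hpx were called higher as well (adjusted p = 0.0317, 0.0326 and 0.0457). That fit called 786 of 13380 genes. With all groups in the edgeR fit, leaving out MASH 3 gave adjusted p = 0.905, 0.905 and 0.902 for the same genes.

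Other genes listed with the inter-alpha-trypsin inhibitor family rose in that fit too. Itih1 and Itih2 encode the other main liver heavy chains, and Ambp encodes bikunin, the light chain. Itih1 stood at 435 CPM on average in MASH and 671 in EE livers, Itih2 at 693 and 993, and Ambp at 1397 and 1970. Each had all EE livers above all MASH livers, and all of them rose in EE in the fit of those 6 livers (log2 fold change 0.62, 0.51 and 0.49, adjusted p = 0.0245, 0.0359 and 0.0310). Calls of genes outside the members in that fit, here and below, were not followed with single livers left out. Over all genes its 746 calls fell to 11 without EE 2, 18 without EE 3, 33 without MASH 1 and 121 without MASH 2. They stood at 720 without EE 1 and 786 without MASH 3. In the fit of 12 livers 0 of the 4 family members outside Itih3 and Itih4 were called, the median for EE against MASH was 0.51 and 4 of 4 were positive (3 of 4 without scaling factors). The remaining one, Itih5, stood at 5.75 CPM in MASH and 6.56 in EE livers.

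**Figure D4:**
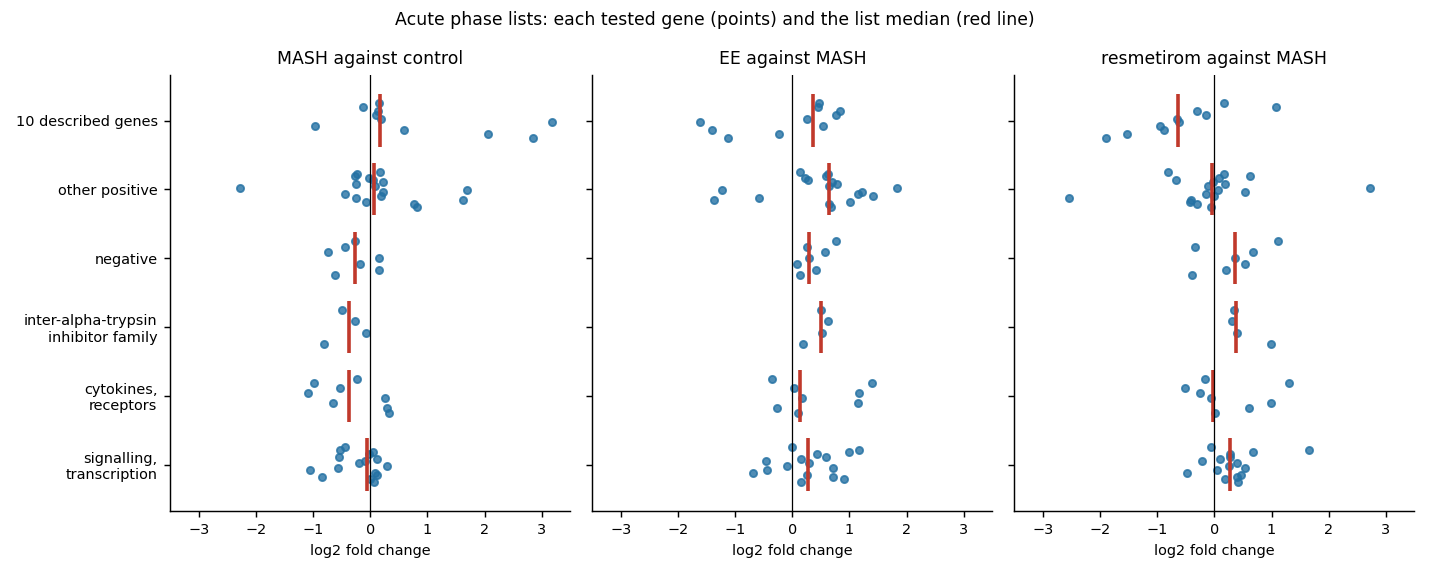
Log2 fold change of each tested gene (points) of the 10 described genes and of 5 related lists, with the list's median (red line), in 3 comparisons from the fit of 12 livers. In EE against MASH the medians of the other positive genes (0.65) and of the inhibitor family (0.51) lie furthest to the right.

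The wider acute phase programme was taken from lists of other genes. Of 18 other positive acute phase genes 0 were called in any comparison of the 12-liver fit, with 4, 5, 4 and 5 at an unadjusted p below 0.05 from edgeR in the order given above, where 9.23%, 7.49%, 15% and 11.8% of all genes were. In EE against MASH, 15 of 18 were positive, where 47.6% of all genes were, with a median of 0.65 (12 of 18 and 0.35 without scaling factors, which lowered the median of all genes to -0.32). In the fit of the EE and MASH livers alone 5 of 18 rose, where 2.95% of all genes did: Lrg1 (leucine-rich alpha-2-glycoprotein, log2 fold change 1.21, adjusted p = 0.00820), Saa4 (1.01, 0.0428), Hamp (hepcidin, 1.82, 0.0294), and C3 and Cfb of the complement system (0.61 and 0.58, both 0.0292), the last pair named after their values were seen. With the block, 8 of 18 rose, where 10.6% of all genes did, now with the fibrinogen genes Fga, Fgb and Fgg (adjusted p = 0.0119, 0.0196 and 0.0148).

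Lrg1 stood at 286, 330 and 312 CPM in MASH and at 705, 830 and 629 in EE livers. Saa4, kept on the list of positive genes although it is the constitutive serum amyloid A, stood at 163, 208 and 180 in MASH and at 282, 507 and 325 in EE livers. Neither pair of groups overlapped. Saa3, the serum amyloid A of macrophages and fat, was lower in every EE than in every MASH liver. It stood at 6.57, 6.23 and 15.4 CPM in MASH and at 5.49, 2.61 and 2.71 in EE livers (log2 fold change -1.38 ± 0.68, adjusted p = 0.696). Saa3 was higher in every MASH than in every control liver, at 4.52, 3.25 and 1.57 CPM in control (1.62 ± 0.69, adjusted p = 0.533). All 9 Kupffer cell and macrophage markers were also positive in MASH against control (median 0.63, 3 of 9 without overlap; 8 of 9 and 0.21 without control 1), with summed levels of 348 to 432 CPM in MASH livers and of 355 and 301 in control 2 and 3 beside 74.3 in control 1. Their part in the Saa3 values was not tested. Crp stood at 291 CPM in MASH, 351 in EE and 182 in resmetirom livers, and Apcs (serum amyloid P) at 60.8, 66.3 and 34.8; without scaling factors EE against MASH turned negative for both. Both had all resmetirom livers below all MASH livers, with Apcs at -0.81 ± 0.22 (adjusted p = 0.111) and Crp at -0.67 ± 0.35 (adjusted p = 0.389).

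In EE livers the negative acute phase genes lay on the same side of MASH as most positive ones. Of 7, all 7 had a positive log2 fold change, with a median of 0.30 (3 of 7 without scaling factors), and in the fit of those 6 livers Ahsg (fetuin A, 0.76, adjusted p = 0.0291) and Apoa1 (0.56, adjusted p = 0.0428) rose and none fell, where 2.95% of all genes rose. Alb stood at 58861 CPM on average in MASH and 70376 in EE livers, and Ttr at 4858 and 5316. In resmetirom against MASH, Ahsg had 1.12 ± 0.27 (adjusted p = 0.0874), the smallest adjusted p in that comparison among the members and the 6 pathway lists. The summed level of the 8 hepatocyte markers was 10283 to 11153 CPM in MASH and 11864 to 14227 in EE livers, without overlap on these scaled levels. Of the 8, 7 were positive with a median of 0.46. In the fit of those 6 livers 4 of the 8 (Asgr1, Cps1, F2 and Fah) rose and Apob fell, beside 5.63% of all genes called. Their part in the EE values of the acute phase genes was not tested.

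Ligands and receptors of the response came at low to moderate levels. Il6 was at 0 CPM in all control and MASH livers and reached 0.15 in resmetirom 2, below the filter. The interleukin 6 receptor gene Il6ra stood at 17.6, 55.0 and 81.2 CPM in control, at 22.5, 22.4 and 27.2 in MASH, at 39.2, 60.2 and 61.9 in EE, and at 17.6, 15.4 and 27.9 in resmetirom livers. It rose in EE in the fit of EE and MASH livers (1.15, adjusted p = 0.0245), the only one of 8 tested ligands and receptors to do so, and had 1.16 ± 0.43 (adjusted p = 0.624) in the fit of 12. Lifr joined it with the block (1.11, adjusted p = 0.00267). In the fit of 12 livers 6 of the 8 were positive for EE against MASH, with a median of 0.14 (3 of 8 and -0.16 without scaling factors).

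Of 16 signalling and transcription factor genes, 4 rose and 1 fell in EE in the fit of those 6 livers, where 5.63% of all genes were called and 2.95% rose. In the fit of 12 livers 0 of 16 were called for EE against MASH, and 11 were positive, with a median of 0.27. Without scaling factors, which lowered the median of all genes to -0.32, 7 of 16 were positive, with a median of -0.03. Stat3, which carries the interleukin 6 signal to the nucleus, stood at 75.0, 72.1 and 78.5 CPM in MASH and at 115, 187 and 119 in EE livers (0.89, adjusted p = 0.0356). Cebpb (1.15, 0.0456), Nfkbia, the NF-kB inhibitor (0.69, 0.0310), and Hnf4a (0.58, 0.0358), named after its values were seen, rose as well, and Nr3c1, the glucocorticoid receptor, fell (-0.69, 0.0363). Socs3, the feedback inhibitor of the receptor, stood at 4.67 CPM in MASH and 7.64 in EE livers, and Cebpd at 4.29 and 8.503, and both were called only with the block (adjusted p = 0.0316 and 0.00941). In resmetirom livers Cebpb stood at 162, 287 and 75.8 CPM, all above the 47.7 to 68.9 of MASH livers (1.66 ± 0.46, adjusted p = 0.123). In MASH against control 0 of 16 were called in either fit, with 2 at an unadjusted p below 0.05 in the edgeR fit of 12 livers, a share near the 9.23% of all genes.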

How the data were processed

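Poly(A) RNA of 12 livers was measured, 3 in each of 4 groups. Per the labels' protocols, TRIzol RNA was made into stranded libraries and sequenced from both ends, 150 bases each, on the NovaSeq X Plus platform. The submitters' processing notes name fastp and the genome build GRCm39 without versions. Aligner, counter, annotation and strand setting are absent from the sources used here. The deposited values are expected counts per Ensembl gene that the authors made for each library, not scaled to a common depth, and they were rounded to whole numbers here. Before scaling, 1 CPM equals 17.3 to 21.8 counts. Symbols and transcript lengths came from a GRCm38 gene table, which matched 22603 of 28036 identifiers.

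Genes were filtered with filterByExpr, scaled by the trimmed mean of M values and tested with edgeR 4.0.16 in R 4.3.3 (robust quasi-likelihood F test). The fit of all 12 libraries left 8 residual degrees of freedom and gave a biological coefficient of variation of 0.334. A gene was called below an adjusted p (Benjamini-Hochberg over 13988 genes) of 0.05. The SE is the size of the log2 fold change over the square root of F, and intervals are 95% with the gene's own degrees of freedom. The scripts were tested on simulated data. Alternatives were DESeq2 1.42.0, limma 3.58.1 voom, other scalings and filters, fits of 2 groups, a replicate block, removal of mitochondrially encoded genes, and leaving out libraries.

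The members, the lists and the naming rule were chosen with earlier results of these data known. The rule named all 10 members and, per list, up to 4 genes with the smallest p in any comparison plus a set of standard acute phase genes. Same-numbered livers were checked for pairing by correlating their deviations from the group means over genes. For EE and MASH the 3 correlations were 0.190, 0.158 and 0.149. With so few livers, values this low do not establish a pairing, and the labels state none. Calls with the replicate block are therefore given only as an alternative, chosen from these same data. For resmetirom and MASH they were 0.129, 0.182 and -0.0179, for MASH and control -0.0154, 0.0741 and -0.0266, and for EE and resmetirom 0.0165, 0.0666 and 0.115.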

Additional observations from a re-analysis of the deposited data

How the results depend on the processing

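Of 940 fold changes of the members under alternatives, 21 changed sign and 19 were called, and 28 of 40 member and comparison pairs never changed sign. The number of members called, 0 in all comparisons of the fit of 12 livers, became 2 for MASH against control, 1 for resmetirom against MASH and 3 for EE against resmetirom with DESeq2, 1 for EE against resmetirom without a filter, and 2 for EE against MASH in the fit of those livers alone, or 3 with the replicate block added to it, an alternative chosen after seeing the data. Leaving out control 1 and resmetirom 2 gave 1 for EE against MASH, 1 for resmetirom against MASH and 3 for EE against resmetirom. With the replicate block in the fit of 12 livers 0 members were called in every comparison, and all genes called for EE against MASH went from 1 to 5. Over all 18 same-numbered pairs 8 correlations were above 0.1 (from -0.341 to 0.260), and 7 of 12 libraries correlated best with their own number. Leaving out 1 library gave 0 members for all comparisons except EE against resmetirom, which ranged from 0 to 2 (2 without control 1), and in the fit of EE and MASH livers alone, also added after seeing the data, from 0 to 5.

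Without scaling factors the median of all genes shifted to 0.37, -0.32, -0.13 and -0.17 (MASH against control, EE against MASH, resmetirom against MASH, EE against resmetirom), and Hpx for MASH against control became 0.36, Lbp for EE against MASH -0.046 and Hp for resmetirom against MASH -0.15. The members' median became 0.69 for MASH against control and 0.05 for EE against MASH under it. Leaving out 1 library each time, MASH against control ranged from -0.054 (without control 3; -0.019 without control 2) to 0.66 for Hp, from -0.29 to 0.077 (without control 1) for Hpx, from -0.035 (without control 1) to 0.30 for Itih3, from -0.15 (without control 1; -0.049 without MASH 3) to 0.31 for Itih4 and from -0.35 (without MASH 3) to 1.25 for Orm2. EE against MASH ranged from -0.83 to 0.36 (without MASH 3; 0.12 without EE 3) for Saa1. Resmetirom against MASH ranged from -0.25 (without resmetirom 2) to 0.40 for Hp, and from -1.58 to 0.062 for Orm2 and -2.31 to 0.41 for Lcn2, both highest without MASH 3. EE against resmetirom ranged from -0.93 to 0.18 for Orm2 and from -1.45 to 0.70 for Lcn2, both highest without resmetirom 1. Leaving out control 1 and resmetirom 2 together gave 0.082 for Hpx, -0.030 for Itih3 and -0.15 for Itih4 in MASH against control, and -0.24 for Hp in resmetirom against MASH. The cause was not tested.

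Counts of all genes called moved widely: for resmetirom against MASH 93 became 657 with DESeq2, 243 without a filter, 38 without scaling factors, 0 in the fit of those livers alone, 431 without control 1, 467 without control 1 and resmetirom 2, and 1 without MASH 2, and for EE against MASH 1 became 28 with DESeq2, 67 without control 1 and resmetirom 2, and 746 in the fit of those livers alone (2745 with the block). For EE against resmetirom 43 became 410, 176, 12, 3, 138, 417 and 18 under the same alternatives as for resmetirom against MASH, and for MASH against control 2 became 87 with DESeq2, 34 without a filter and 0 in the fit of those livers alone. With 3 livers a group, differences of the size of the within-group spread of Saa1, Saa2, Lcn2 and Orm2 were not resolved. Saa2 rested on 18 counts in control 1 and Lcn2 on 41.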

Other observations

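Over the 12 livers, the genes whose log2 level was most like that of Lcn2 included Gbp5 (Pearson r 0.92, Spearman rho 0.94), Il1rn (0.91 and 0.87), Mcm3 (0.89 and 0.83) and Ear2 (0.89 and 0.93). Il1rn, the interleukin 1 receptor antagonist and itself an acute phase gene, stood at 3.69, 3.26 and 8.08 CPM in MASH and at 12.5, 1.80 and 1.23 in resmetirom livers, so its highest livers were the same MASH 3 and resmetirom 1. The genes most like Saa1 were Cryzl2 (0.88 and 0.87), Chchd6 (0.87 and 0.83), Trmt5 (0.86 and 0.90) and Zfp346 (0.86 and 0.79), after LTO1 (0.91 and 0.88). These are descriptions of 12 livers that share groups and scaling.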
